A study of Homo sapiens with 28 samples.

Results

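Nephronectin and 8 structural genes of the basement membrane are described here: NPNT, the laminin chains LAMA1, LAMA3, LAMA5, LAMB1, LAMB3 and LAMC1, the nidogen NID1, and perlecan, HSPG2. They are 9 of the 18961 human amplicons of a targeted expression panel, found by gene symbol with 1 amplicon each. The genes were selected on earlier results of these same libraries, among them the differences between tumours and cultures, so those differences are given below as descriptions, with every library's value and without a p-value. All 9 passed the filter on low reads, LAMA1 through HepG2 tumours and PLC/PRF/5, either of which would have been enough, since it was at or near 0 in the other lines.

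A basement membrane is a thin sheet of matrix that epithelial, endothelial and muscle cells rest on. Laminins, trimers of an alpha, a beta and a gamma chain, polymerise at the cell surface, type IV collagens form another network, and nidogens and the heparan sulphate proteoglycan perlecan join them. Nephronectin is a secreted protein of basement membranes that is bound by the integrin of ITGA8 and ITGB1. In normal liver the sinusoids lack a continuous basement membrane, whereas bile ducts and larger vessels have one, and laminins are known to be deposited in liver carcinoma.

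The study compared 4 human liver tumour lines, HepG2, Hep3B, HuH7 and PLC/PRF/5, in cultures (in vitro, 3 libraries per line) and in tumours grown on fertilised white leghorn chicken eggs (in ovo, 4 libraries per line). HepG2 comes from a hepatoblastoma and the others from hepatocellular carcinomas. Tumour cells suspended in a graft medium were laid on the chorioallantoic membrane, a vascular membrane of the embryo, at embryonic day 9, and the tumours were taken at day 18. No gene was altered and no drug was given in any group, as far as the labels say. Each library was built from 500 ng of total RNA, which came through a Mini RNeasy kit from cultures and a Midi RNeasy kit from tumours, which means that kit and condition cannot be told apart. The table's column names start with a letter and a number whose meaning is not given in the sources used here, and no such number is shared between cultures and tumours. Nothing in the labels tells whether the libraries of a group are separate cultures or eggs, and the p-values therefore cover only the spread among these libraries.

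Depth was 6085750 to 15086465 reads over the 16 tumours and 6205368 to 8662998 over the 12 cultures. Levels are CPM (an amplicon's part of all the reads of its library, scaled to a fixed sum) after TMM scaling, and 3 reads in a library correspond to 0.251 to 0.806 on that scale. Differences are on log2(CPM + 1) and are given ± SE, which understates the change of genes near 0. Each amplicon is amplified with its own efficiency and no value is per length, so levels are compared between libraries and not between genes. In a bulk tumour, fewer cells of a type and less RNA per cell cannot be told apart. The panel reads human transcripts, and the eggs' own cells are chicken. Of 12 endothelial markers, KDR and EMCN were at 0 in every library. The summed endothelial markers ranged from 26.4 to 167 CPM in cultures and from 33.7 to 667 in tumours, with EGFL7 leading in Hep3B, HuH7 and PLC/PRF/5 tumours. Summed fibroblast markers were higher in the tumours of Hep3B (283 to 535 CPM against 116 to 123 in culture, PDGFRA leading in both) and HuH7 (558 to 866 against 350 to 368, with LUM leading in culture at a mean of 198 and PDGFRA in tumours at 590). They were lower in those of HepG2 (35.3 to 48.4 against 121 to 125) and PLC/PRF/5 (71.8 to 99.2 against 146 to 199). COL3A1 was at 0 in HepG2 and PLC/PRF/5. The 10 leukocyte markers summed to at most 405 CPM, in HepG2 cultures with LYZ leading, and the 4 measured erythroid markers to at most 3.06. The 12 liver markers summed to 4866 CPM or more in HepG2, Hep3B and HuH7, against 24.9 to 31.6 in PLC/PRF/5 cultures, where ALB, TTR and FOXA2 were at 0, and 802 to 2102 in its tumours. The part of other cell types in the values below was not tested.

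The amplicons of 3 members are shown because the results turn on them: NPNT, which had the largest difference between the conditions, LAMA5, which stood far out in single tumours and has the most GC, and LAMA3, which has the least. They are written from 5' to 3' on the strand of the gene as the deposited table gives them, with 6 bases on each side of an exon junction in capitals, placed by exact match to GENCODE 29 on GRCh38.
NPNT: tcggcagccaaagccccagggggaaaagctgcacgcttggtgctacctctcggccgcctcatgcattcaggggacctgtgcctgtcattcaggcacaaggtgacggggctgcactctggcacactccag
LAMA3: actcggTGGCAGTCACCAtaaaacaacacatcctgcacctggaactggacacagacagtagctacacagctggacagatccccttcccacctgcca
LAMA5: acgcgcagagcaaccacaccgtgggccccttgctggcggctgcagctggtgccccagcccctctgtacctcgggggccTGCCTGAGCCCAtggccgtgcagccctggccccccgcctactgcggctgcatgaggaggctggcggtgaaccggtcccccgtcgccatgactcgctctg
The NPNT amplicon (chr4:105967208-105967336, plus strand, 129 bases, 62.8% GC) lies in coding exon 11 of 12 of transcript NPNT-202 and crosses no junction. That of LAMA3 (chr18:23951766-23953073, plus strand, 96 bases, 54.2% GC) joins exons 73 and 74 of 75. That of LAMA5 (chr20:62309383-62309799, minus strand, 177 bases, 72.3% GC) joins exons 79 and 80 of 80 and is richer in GC than nearly all others, 0.725% of the tested amplicons having as much. All 9 amplicons lie in coding sequence and match 1 gene each. Those of NPNT, LAMB1, LAMB3 and NID1 lie within 1 exon, and the 5 others cross a junction.

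NPNT, the secreted integrin ligand, was higher in the tumours of HepG2, Hep3B and HuH7 than in any of their cultures. In HuH7 it was 7.60, 7.81 and 8.27 CPM in the cultures and 549, 620, 1635 and 560 in tumours 1 to 4. Every HuH7 tumour lay far above every culture, with a difference of 6.39 ± 0.40, or 84.1-fold on the log2(CPM + 1) scale. HepG2 had 23.4, 25.2 and 29.8 CPM in culture and 120, 161, 567 and 192 in ovo, a difference of 3.00 ± 0.40. The values of Hep3B were 33.4, 35.9 and 34.8 CPM in culture and 156, 248, 283 and 179 in ovo, a difference of 2.57 ± 0.40. PLC/PRF/5 differed in that its cultures were already at 324, 283 and 294 CPM. Its tumours were at 607, 282, 701 and 596, so that tumour 2 lay within the cultures and the others above them (0.78 ± 0.40).

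The lines thus stood in another order in culture than in the eggs. NPNT averaged 300 ± 21.3 CPM (SD, n = 3) in PLC/PRF/5 cultures, 34.7 ± 1.25 in Hep3B, 26.1 ± 3.28 in HepG2 and 7.90 ± 0.345 in HuH7. Of the 6 pairs of lines, 5 differed in limma's test over all 13100 amplicons (adjusted p from 1.55e-10 for HuH7 against PLC/PRF/5 to 0.00308 for HepG2 against HuH7), and HepG2 and Hep3B did not (difference 0.40 ± 0.42, adjusted p = 0.511, Hep3B higher). With the cultures fitted alone, without the spread of the tumours, HepG2 and Hep3B passed as well (limma, adjusted p = 0.000863). In ovo the means were 841 ± 530 CPM (SD, n = 4) in HuH7, 546 ± 182 in PLC/PRF/5, 260 ± 207 in HepG2 and 217 ± 59.0 in Hep3B. The ranges of neighbours in the order of these means overlapped, HuH7 with PLC/PRF/5, PLC/PRF/5 with HepG2, and HepG2 with Hep3B. By medians the order was PLC/PRF/5 (601 CPM), HuH7 (590), Hep3B (214) and HepG2 (177). Only the place of HuH7 then differed from the order in culture. Tumour 3 held the highest NPNT level in each line. Without the 4 tumours numbered 3, the difference was 6.03 for HuH7, 2.55 for HepG2, 2.41 for Hep3B and 0.64 for PLC/PRF/5.

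**Figure D1:**
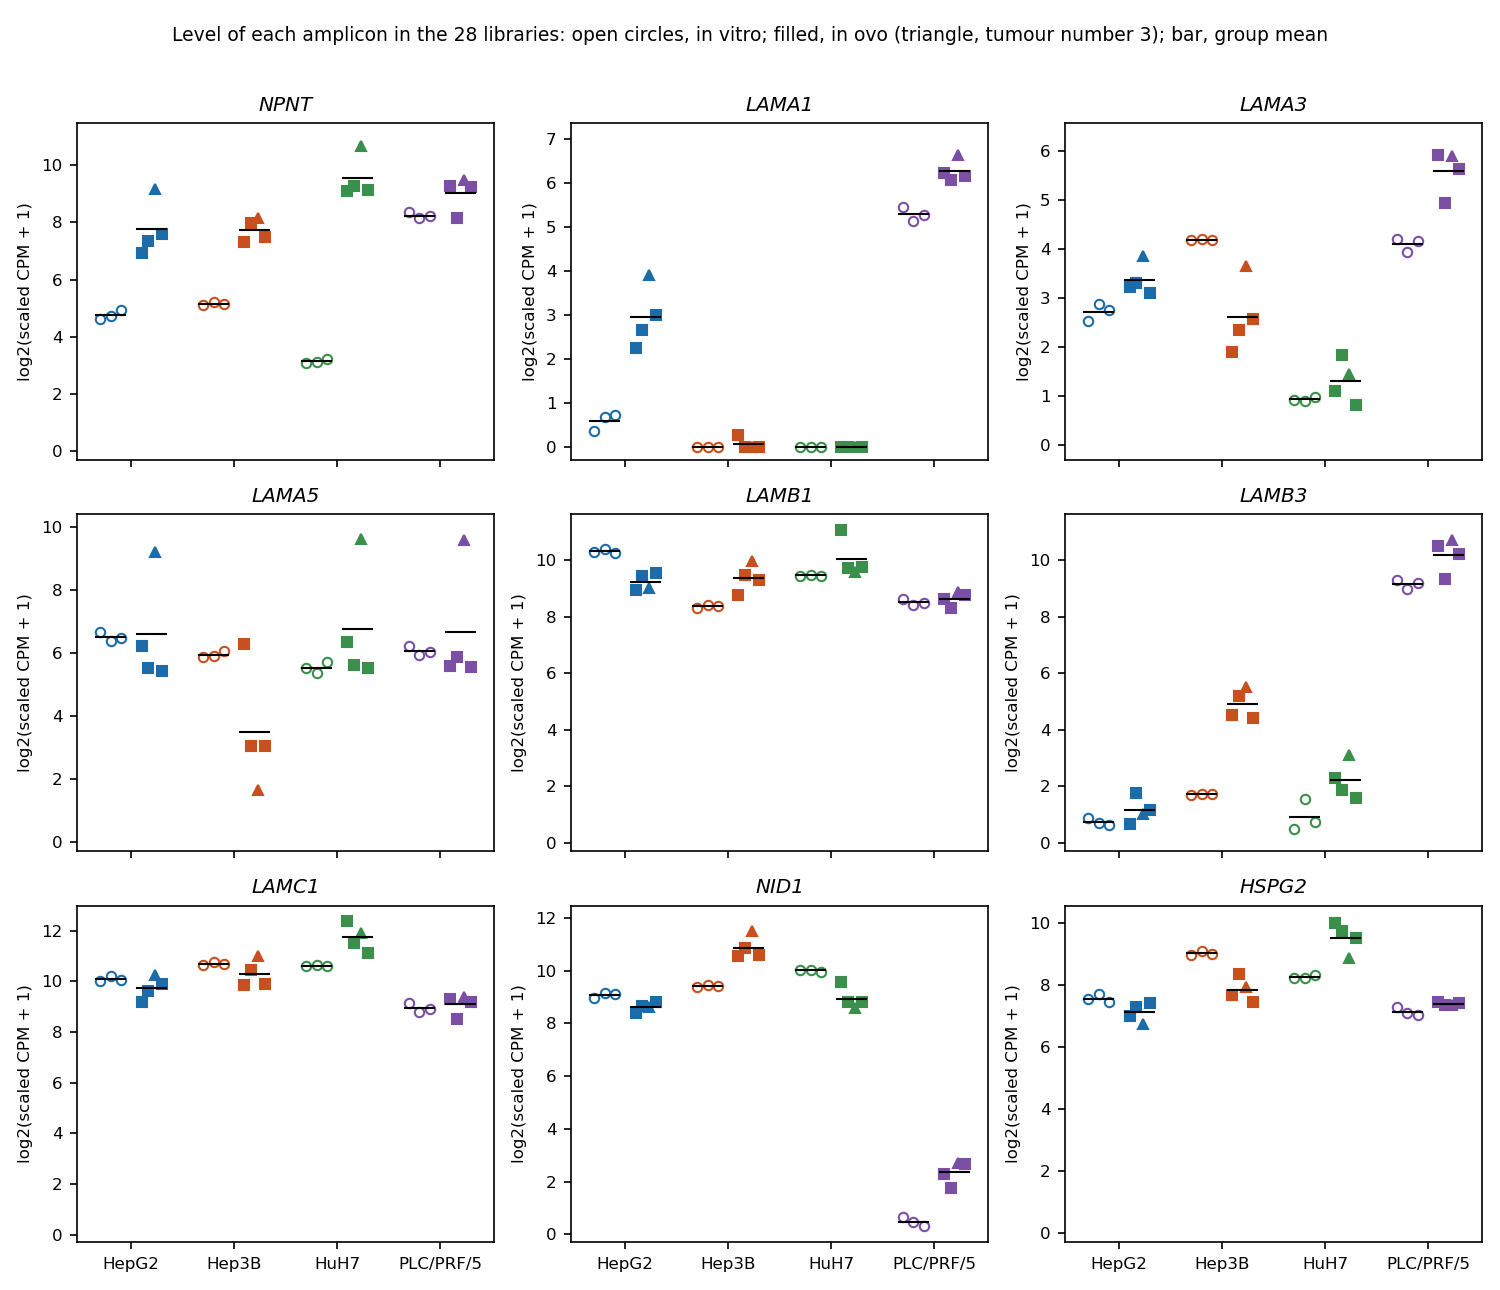
Level of the 9 amplicons in the 28 libraries, as log2(scaled CPM + 1) on the vertical axis, by line on the horizontal axis; open circles are cultures, filled squares and triangles are tumours (triangles, those numbered 3), and bars are group means. NPNT tumours of HuH7 (549 to 1635 CPM) stand far above its cultures (7.60 to 8.27), NID1 is near 0 in PLC/PRF/5 alone, and single LAMA5 tumours stand apart from the others of their line.

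The genes whose levels went most like those of NPNT over the 28 libraries were APPL2 (Pearson r = 0.904 on log2(CPM + 1)), an endosomal adaptor, TRIM45 (0.891), a RING-finger protein, ELMO3 (0.868), of the ELMO family of engulfment proteins, WDR90 (0.866), a WD-repeat protein, and SETD4 (0.854), a methyltransferase. They lead 9277 amplicons compared, and the libraries share lines and conditions, so the r values describe these libraries only. Their range was small beside that of NPNT: APPL2 averaged 31.0 ± 1.87 CPM in HuH7 cultures (SD, n = 3) and 64.6 ± 3.64 in its tumours (SD, n = 4).

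Among the laminin alpha chains, LAMA1, typical of embryonic basement membranes, was mainly read in PLC/PRF/5 in culture. Its levels there were 43.1, 34.3 and 37.9 CPM, against 0.280, 0.612 and 0.662 in HepG2, and no read was found in any Hep3B or HuH7 culture. PLC/PRF/5 cultures exceeded HepG2 by 4.70 ± 0.26 (limma, adjusted p = 5.13e-14). Against the floor of 3 reads per library they were at least 94.6-fold higher than Hep3B and at least 118-fold higher than HuH7 (adjusted p = 5.62e-15 and 5.91e-15). In tumours LAMA1 was higher in HepG2 and PLC/PRF/5, although the HepG2 cultures held only 2, 5 and 6 reads, near the floor. HepG2 tumours had 3.75, 5.33, 14.1 and 6.97 CPM (2.36 ± 0.25) and PLC/PRF/5 tumours 74.3, 66.3, 98.1 and 70.5 (0.98 ± 0.25), all above their cultures. The 4 HuH7 tumours were at 0, and in Hep3B only tumour 1 had any reads, 2 in all.

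LAMA3, the alpha chain of the laminins that hold epidermis to dermis, went in opposite directions between lines. It was 17.0, 17.3 and 17.1 CPM in Hep3B cultures and 2.75, 4.10, 11.6 and 4.92 in Hep3B tumours, every tumour lower (-1.56 ± 0.31). PLC/PRF/5 showed the reverse, with 17.5, 14.3 and 16.8 CPM in culture and 58.8, 29.7, 58.4 and 48.3 in ovo, every tumour higher (1.49 ± 0.31). In HepG2 all tumours (7.59 to 13.5 CPM) were above the cultures (4.77 to 6.37), and in HuH7 the conditions overlapped at 0.766 to 2.57 CPM. In culture Hep3B and PLC/PRF/5 did not pass the test against each other (difference 0.08 ± 0.33, limma, adjusted p = 0.883), HepG2 was lower than both and HuH7 was lowest, the other 5 pairs differing with adjusted p from 9.64e-09 to 0.00102.

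LAMA5, the alpha chain found most widely in adult epithelia and vessels, was set by single tumours. Its cultures were at 40.3 to 101 CPM over all lines. In HepG2, HuH7 and PLC/PRF/5, tumours 1, 2 and 4 were at 42.1 to 80.9 CPM, and tumour 3 was at 590, 783 and 778. In Hep3B tumour 1 stood out instead, at 76.7 CPM, with 7.18, 2.15 and 7.27 in tumours 2 to 4. The conditions overlapped in every line, and the difference was 1.24 ± 1.03 in HuH7, 0.59 ± 1.03 in PLC/PRF/5, 0.09 ± 1.03 in HepG2 and -2.44 ± 1.03 in Hep3B. Without the tumours numbered 3 they became -0.76 in HepG2, 0.30 in HuH7 and -0.39 in PLC/PRF/5, and without tumour 1 the Hep3B difference became -3.37. The wide SE comes from these tumours and also covers the cultures, where LAMA5 differed in none of the 6 pairs by limma (adjusted p from 0.527 to 0.956). With the 12 cultures fitted alone, 5 of the 6 pairs passed, HepG2 being highest at 90.7 ± 9.55 CPM and HuH7 lowest at 45.8 ± 5.62 (SD, n = 3; difference 0.97).

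The departure of LAMA5 was shared by other amplicons of high GC. In tumour 3 of HepG2, HuH7 and PLC/PRF/5, 38 of the 13100 tested amplicons were at least 4-fold above every other tumour of the line on CPM + 1, and LAMA5 and the collagen gene COL18A1, another basement membrane gene, were among them. Their median GC was 69.1%, against 55.6% over all tested amplicons. None of the 38 met that rule in tumour 3 of Hep3B, whereas 32 of them were highest in Hep3B tumour 1 and 11 were there at least 4-fold above every other tumour. The list was chosen on these values, those of Hep3B apart, and whether GC or the library accounts for the LAMA5 levels was not tested.

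**Figure D2:**
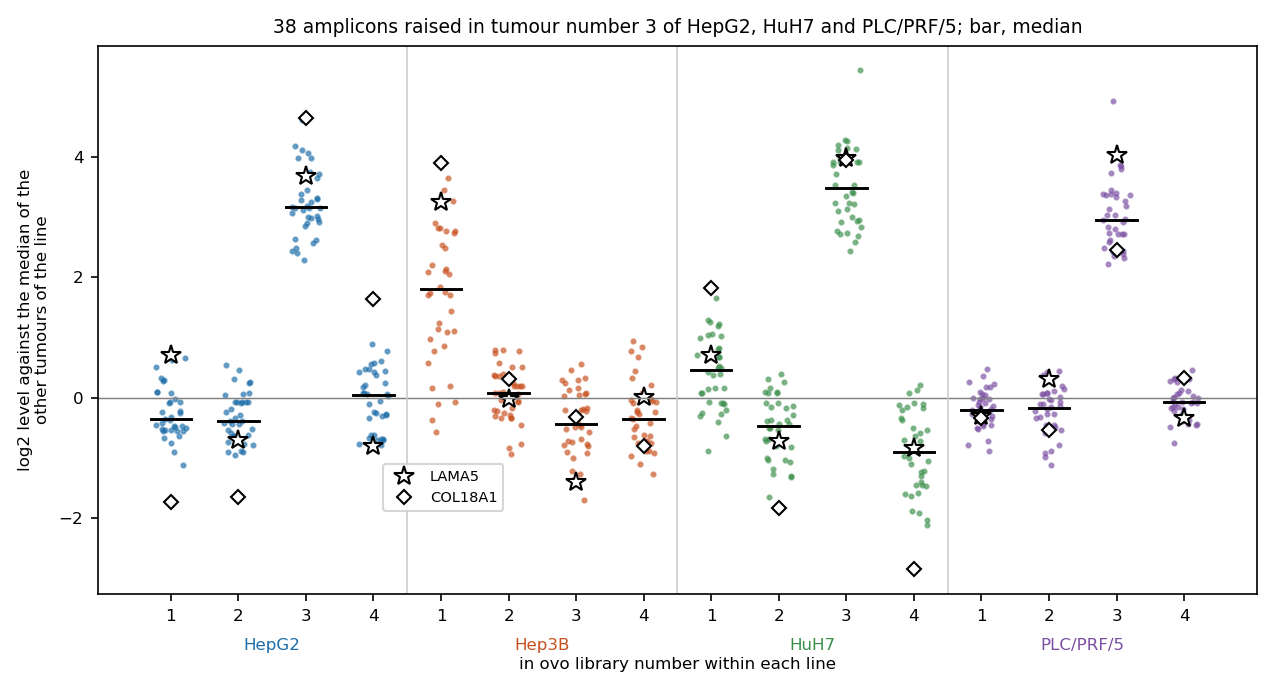
Log2 level of 38 amplicons in each in ovo library against the median of the other tumours of its line (vertical axis), by line and library number (horizontal axis); dots are amplicons, black bars medians, the star is LAMA5 and the diamond COL18A1. The medians are 3.16, 3.47 and 2.96 in tumour 3 of HepG2, HuH7 and PLC/PRF/5, by which the amplicons were chosen, and 1.80 in tumour 1 of Hep3B, against -0.43 in its tumour 3.

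Of the beta chains, LAMB1, the chain of the common laminins, was read in every library at 314 CPM or more. It was lower in HepG2 tumours, at 493, 690, 516 and 751 CPM, than in HepG2 cultures, at 1264, 1347 and 1228 (-1.08 ± 0.28). It was higher in Hep3B tumours, at 439, 719, 1007 and 627 CPM against 319, 340 and 333 in culture (1.01 ± 0.28), but scaling by total reads alone takes that difference to 0.00, as described below. All HuH7 tumours (772 to 2183 CPM) were above the HuH7 cultures (702 to 722), with tumour 1 alone setting the upper end, and without it the difference fell from 0.57 to 0.22. The conditions overlapped in PLC/PRF/5 (0.12 ± 0.28). Cultures ranked HepG2, HuH7, PLC/PRF/5 and Hep3B, and the last pair did not pass the test (limma, adjusted p = 0.729), though it did with the cultures fitted alone (0.0476).

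LAMB3, the beta chain of epidermal laminin, separated PLC/PRF/5 from the other lines. Its cultures were at 630, 503 and 584 CPM, whereas the cultures of HepG2, Hep3B and HuH7 were at 0.4 to 2.32. PLC/PRF/5 exceeded the others by 7.44 to 8.42 on the log2 scale (limma, adjusted p from 5.28e-16 to 7.91e-15). In PLC/PRF/5 tumours LAMB3 was at 1431, 640, 1666 and 1186 CPM, all above the cultures (1.02 ± 0.35). Hep3B had the largest difference of the gene, from 2.22, 2.30 and 2.32 CPM in culture to 22.0, 35.4, 44.1 and 20.4 in ovo (3.19 ± 0.35). HuH7 tumours had 3.86, 2.68, 7.55 and 1.96 CPM against 0.4, 1.95 and 0.653 in culture (1.28 ± 0.35), the lowest tumour just above the highest culture. Those HuH7 cultures held only 4, 18 and 6 reads. In HepG2 the conditions overlapped at 0.551 to 2.42 CPM.

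LAMC1, the gamma chain shared by most laminins, was high in every library, and only HuH7 tumours stood apart from their cultures. HuH7 had 1575, 1614 and 1549 CPM in culture and 5407, 2945, 3881 and 2199 in ovo (1.11 ± 0.29). The conditions overlapped in HepG2 (-0.33 ± 0.29), Hep3B (-0.39 ± 0.29) and PLC/PRF/5 (0.15 ± 0.29). In culture, PLC/PRF/5 was lowest at 497 ± 62.6 CPM (SD, n = 3) and differed from each other line (limma, adjusted p from 3.86e-05 to 0.00351), while HepG2, Hep3B and HuH7 did not pass the test between themselves (adjusted p from 0.121 to 0.914). That fit shares its spread with the tumours. With the cultures fitted alone, HepG2 was lower than Hep3B and HuH7 (limma, adjusted p = 2.07e-05 and 6.16e-05). The levels of LAMC1 and HSPG2 had the highest correlation of any 2 members over the 28 libraries (Pearson r = 0.848), and those of LAMA1 and NID1 the lowest (-0.908), which are descriptions over libraries that share lines.

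NID1, which links laminin to collagen networks, was the member that PLC/PRF/5 cultures nearly lacked. Its PLC/PRF/5 cultures had 0.582, 0.381 and 0.234 CPM, 12 reads in all, against 493 to 1049 in the cultures of the other lines (differences of 8.6 to 9.53, limma, adjusted p from 2.94e-20 to 1.07e-19). In tumours the lines went apart. The levels of Hep3B were 656, 696 and 676 CPM in culture and 1494, 1837, 2901 and 1524 in ovo, every tumour higher (1.46 ± 0.23). HuH7 had 1043, 1049 and 996 CPM in culture and 752, 446, 385 and 443 in ovo, every tumour lower (-1.07 ± 0.23). HepG2 tumours (334 to 447 CPM) were also below their cultures (493 to 574), by a difference of -0.47 ± 0.23.

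In PLC/PRF/5 tumours NID1 was at 3.92, 2.42, 5.55 and 5.41 CPM, all above the cultures (1.89 ± 0.23), yet this is 0.223% of the mean of the Hep3B tumours. Other genes near 0 in PLC/PRF/5 cultures were read in its tumours at like shares. NID1 is 1 of 55 genes under 1 CPM in each PLC/PRF/5 culture and at 500 CPM or more in the tumours of another line, and these stood in PLC/PRF/5 tumours at a median of 0.46% (0.00464 to 1.12%) of that line's mean. In the same terms the cultures of PLC/PRF/5 were at a median of 0.00998%. Whether reads from other libraries make up this NID1 signal was not tested. By the same measure, LAMB3 in HepG2 tumours stood at 0.107% of its PLC/PRF/5 tumour mean, where 13 such genes ranged from 0.00249 to 1.08%, and LAMB3 in Hep3B tumours at 2.48%, where 13 genes ranged from 0.0106 to 3.13% with a median of 0.164%. In HuH7 tumours LAMB3 stood at 0.326%, where 17 genes ranged from 0.00324 to 0.306% with a median of 0.0217%. LAMB3 is not itself among the genes compared in Hep3B and HuH7, since its cultures there exceeded 1 CPM (2.22 to 2.32 in Hep3B, up to 1.95 in HuH7). Its shares in those lines are therefore not ranked among these genes.

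HSPG2, perlecan, differed in both directions. Its HuH7 levels were 299, 303 and 321 CPM in culture and 1033, 855, 476 and 733 in ovo, every tumour higher (1.27 ± 0.21). Its Hep3B levels were 507, 547 and 513 CPM in culture and 204, 326, 247 and 175 in ovo, every tumour lower (-1.17 ± 0.21). HepG2 tumours (107 to 173 CPM) lay just below the cultures (174 to 208), and PLC/PRF/5 tumours (163 to 177) just above theirs (130 to 158). In culture 5 of the 6 pairs of lines differed (limma, adjusted p from 1.32e-07 to 0.0139), with Hep3B highest, and HepG2 and PLC/PRF/5 did not (adjusted p = 0.138). HepG2 and PLC/PRF/5 did pass with the cultures fitted alone (limma, adjusted p = 0.000331).

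**Figure D3:**
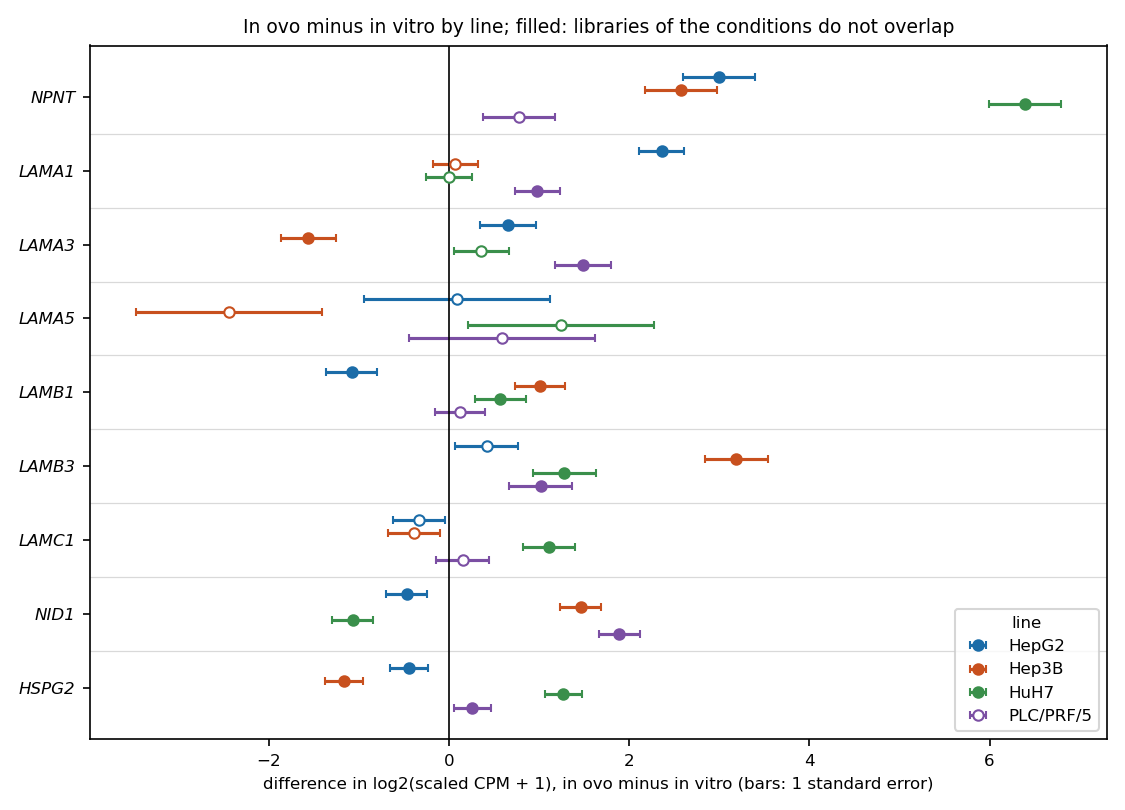
Difference in ovo minus in vitro in log2(scaled CPM + 1) on the horizontal axis, with 1 SE, for the 9 genes in each line (colours); filled points mark genes whose tumours all lie on one side of the cultures. NPNT in HuH7 is farthest to the right at 6.39, LAMA5 has the widest bars at 1.03, and LAMA3, LAMB1, NID1 and HSPG2 have filled points on both sides of 0.

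By line, and naming only genes whose libraries do not overlap, HuH7 tumours had NPNT, LAMB1, LAMB3, LAMC1 and HSPG2 higher and NID1 lower. Hep3B tumours had NPNT, LAMB1, LAMB3 and NID1 higher and LAMA3 and HSPG2 lower. In HepG2, NPNT, LAMA1 and LAMA3 were higher and LAMB1, NID1 and HSPG2 lower. In PLC/PRF/5, LAMA1, LAMA3, LAMB3, NID1 and HSPG2 were higher and none was lower. How many of all amplicons were without overlap was not counted, so nothing is read from the length of these lists. The fit's call (adjusted p under 0.05) was met by 2 genes higher and 1 lower in HepG2, where 12.6% and 12.4% of all 13100 amplicons were called, by 4 and 2 in Hep3B (25.3% and 26.7%), by 4 and 1 in HuH7 (23.9% and 19.5%) and by 4 and 0 in PLC/PRF/5 (11.7% and 5.62%), where limma at an unadjusted p under 0.05 and edgeR also called 0 lower. Nothing is read from these counts, since the genes were chosen with the contrast known. The median difference of the 9 was 0.09, 0.07, 1.11 and 0.78 in HepG2, Hep3B, HuH7 and PLC/PRF/5, beside 0.00, -0.03, 0.02 and 0.07 over all amplicons tested.

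Scaling bears on Hep3B most. With total reads alone in place of TMM, the median of all amplicons moved to -0.74 in Hep3B, and to -0.18, -0.13 and -0.07 in HepG2, HuH7 and PLC/PRF/5, and Hep3B then had 1205 amplicons called higher and 6820 lower, against 3309 and 3499. On that scale the Hep3B differences were 1.56 for NPNT, 0.00 for LAMB1, 2.26 for LAMB3, 0.45 for NID1, -1.41 for LAMC1 and -2.18 for HSPG2. The small differences of LAMA5 in HepG2 and of LAMB1 and LAMC1 in PLC/PRF/5 turned negative (-0.18, -0.12 and -0.09). The differences also ran with amplicon composition: over the tested amplicons, Spearman's rho of the difference with GC content was 0.506 in HuH7, 0.458 in Hep3B, 0.389 in PLC/PRF/5 and 0.276 in HepG2. With amplicon length, rho was -0.487 in Hep3B, -0.341 in HuH7, -0.295 in HepG2 and -0.213 in PLC/PRF/5. With the trends on GC and length removed, NPNT remained higher in ovo, by 2.76, 1.81, 5.80 and 0.52 in HepG2, Hep3B, HuH7 and PLC/PRF/5, while LAMA5 in HepG2 and HSPG2 in PLC/PRF/5 went to -0.13 and -0.03.

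Differences between lines in culture were not the contrast on which the genes were proposed. Levels by line were known at that choice, however, so the p-values between cultures describe these libraries and are no independent test. Of 54 tests (9 genes in 6 pairs of lines), 34 passed in the fit of all 28 libraries. Pairs with PLC/PRF/5 had most, 8 of 9 genes against HuH7 (49.1% of all amplicons called), 7 against HepG2 (50.9%) and 6 against Hep3B (46.3%). HepG2 and HuH7 differed in 5 genes (44.6%), HepG2 and Hep3B in 4 (39.9%) and Hep3B and HuH7 in 4 (33.8%). PLC/PRF/5 cultures were thus the line with LAMA1 and LAMB3, with the most NPNT, with the least LAMC1 and with next to no NID1.

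Genes of the same pathway that are not among the 9 were taken from lists of 60 genes, of which 54 passed the filter, and tested by limma over all 13100 amplicons. These lists were chosen with earlier results of these data known. Their shares and p-values, here and in the paragraphs that follow, therefore describe these libraries and are no independent test. HepG2 tumours had 2 that rose and 16 that fell, Hep3B 14 and 16, HuH7 15 and 8, and PLC/PRF/5 11 and 5. As shares of the 54, the rises are 3.7, 25.9, 27.8 and 20.4% in that order of lines and the falls 29.6, 29.6, 14.8 and 9.26%, to be set beside the shares of all amplicons above. Their median differences were -0.32, -0.01, 0.22 and 0.29. With total reads alone the Hep3B counts were 6 and 26. Leaving out PLC/PRF/5 in vitro replicate 1 lowered its rises to 7, leaving out Hep3B in vitro replicate 2 lowered its falls to 10, and leaving out HuH7 in ovo replicate 3 lowered its falls to 5.

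Of 15 receptor genes tested, 8 fell and 1 rose in HepG2, 53.3% and 6.67% against 12.4% and 12.6% of all amplicons. In Hep3B 6 fell and 2 rose (40.0% and 13.3%, against 26.7% and 25.3%), in HuH7 2 fell and 4 rose (13.3% and 26.7%, against 19.5% and 23.9%), and in PLC/PRF/5 2 fell and 2 rose (13.3% each, against 5.62% and 11.7%). No list was tested as a group, here or below. ITGB1, the beta subunit of the integrins for laminin and nephronectin, was at 286, 253 and 245 CPM in HepG2 cultures and fell to 97.1, 84.9, 12 and 63.2 in tumours (-2.35 ± 0.69, limma, adjusted p = 0.0131). It fell in Hep3B as well, from 420 ± 17.9 CPM (SD, n = 3) to 44.5 ± 29.3 (SD, n = 4; -3.56 ± 0.69, adjusted p = 0.000165), and in HuH7, from 241 ± 9.26 to 81.5 ± 62.2 (-2.07 ± 0.69, adjusted p = 0.0183). In PLC/PRF/5 all tumours were below the cultures but the test was not passed (-0.96 ± 0.69, adjusted p = 0.383). Tumour 3 held the lowest ITGB1 level in each line, its amplicon has 47.4% GC, and without the tumours numbered 3 the differences were -1.66, -2.96, -1.29 and -0.79, all 4 past the test (adjusted p from 5.10e-09 to 0.0247). The ITGB1 call in HepG2 did not stand with each line fitted alone (limma, adjusted p = 0.0698) or when HepG2 in ovo replicate 3 alone was left out (0.063). That in HuH7 did not stand with each line fitted alone (limma, adjusted p = 0.109), without HuH7 in ovo replicate 3 (0.0923) or without HuH7 in vitro replicate 3 (0.0523), and its difference was -1.22 with GC and length trends removed.

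ITGA8, the alpha subunit that pairs with ITGB1 to bind nephronectin, had no read in any of the 28 libraries. Since none of them shows that its amplicon can be read, absence of the transcript and failure of the amplicon cannot be told apart. ITGA6, a laminin-binding alpha subunit, fell in HepG2 (-1.0 ± 0.21, adjusted p = 0.000756), Hep3B (-1.22 ± 0.21, 3.97e-05; -2.22 with total reads alone) and PLC/PRF/5 (-0.61 ± 0.21, 0.0417), the last call being lost, among other settings, with edgeR on the recovered reads (0.06), with each line fitted alone (0.124), with GC and length trends removed (0.0642) and when PLC/PRF/5 in ovo replicate 2 was left out (0.147). ITGB4, its partner in hemidesmosomes, fell in HepG2 (-1.90 ± 0.35, adjusted p = 0.000207) and rose in HuH7, from 4.26 to 34.6 CPM (2.68 ± 0.35, 1.73e-06). The alpha subunits ITGA2 and ITGA3 fell in HepG2 by 2.95 ± 0.26 and 2.41 ± 0.28 (adjusted p = 4.56e-09 and 4.25e-07). ITGA2 also fell in Hep3B (-1.62 ± 0.26, limma, adjusted p = 1.88e-05) and HuH7 (-0.78 ± 0.26, 0.0187), the latter call being lost without HuH7 in ovo replicate 3 (0.0638). ITGA3 fell in Hep3B (-1.05 ± 0.28, 0.00342) but rose in HuH7 (0.97 ± 0.28, 0.00761), a call lost with GC and length trends removed (0.2). BCAM, a receptor for laminins that contain LAMA5, rose in HepG2 (1.13 ± 0.29), Hep3B (1.96 ± 0.29) and HuH7 (0.92 ± 0.29), with limma's adjusted p from 5.39e-06 to 0.0121. With each line fitted alone, the BCAM calls in HepG2 and HuH7 were lost (limma, adjusted p = 0.0574 and 0.0569). With GC and length trends removed, the HuH7 difference went to 0.51 and was not called (0.0652), and with total reads alone that of Hep3B went to 0.95. DAG1, dystroglycan, fell in PLC/PRF/5 (-0.58 ± 0.14, adjusted p = 0.00573) and did not pass the test in the other lines (-0.27 to 0.15). SDC1, a heparan sulphate proteoglycan of the cell surface, rose in Hep3B from 65.3 to 259 CPM (1.90 ± 0.33, adjusted p = 5.76e-05), a difference of 0.92 with GC and length trends removed and of 0.89 with total reads alone.

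The largest differences of the collagens were in HuH7 and PLC/PRF/5. Of 20 other basement membrane genes tested, 7 rose and 3 fell in HuH7 (35.0% and 15.0%, against 23.9% and 19.5% of all amplicons) and 4 and 2 in PLC/PRF/5 (20% and 10%, against 11.7% and 5.62%). The 6 that rose and 5 that fell in Hep3B (30.0% and 25.0%) were near the shares of all amplicons (25.3% and 26.7%), and 1 and 1 in HepG2 (5.0% each) were below them (12.6% and 12.4%). COL4A3 and COL4A4, paired type IV collagen chains known from the kidney's filter, rose together in HuH7 tumours. COL4A3 had 2 reads in the HuH7 cultures together and 8.41 to 31.7 CPM in the tumours (4.18 ± 0.29, limma, adjusted p = 4.23e-11), and COL4A4 went from 0.968 ± 0.588 (SD, n = 3) to 32.2 ± 10.5 CPM (SD, n = 4; 4.07 ± 0.25, 7.12e-12). NID2, the other nidogen, fell in HuH7 from 224 ± 2.61 to 42.6 ± 28.2 CPM (-2.64 ± 0.35, 2.01e-06), where NID1 was lower too. In Hep3B the nidogens went opposite ways: NID2 fell from 31.0 to 11.6 CPM (-1.38 ± 0.35, limma, adjusted p = 0.00219), whereas NID1 was higher. The NID2 call in Hep3B was lost with GC and length trends removed with the replicate block (0.0523). In PLC/PRF/5 tumours COL15A1, a collagen of the basement membrane zone, rose from 38.3 ± 10.5 to 340 ± 105 CPM (3.11 ± 0.19, adjusted p = 8.20e-12), and TINAGL1, a matrix glycoprotein, fell (-1.48 ± 0.23, 5.49e-05). EGFLAM, a ligand of dystroglycan, fell there by 0.64 ± 0.15 (adjusted p = 0.00322), a call lost with edgeR on the recovered reads (0.204), a pseudocount of 0.25 (0.0715) and GC and length trends removed (0.0517).

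LAMA4, the alpha chain of vessels and muscle, rose in Hep3B from 1.96 to 14.8 CPM (2.39 ± 0.18, adjusted p = 1.05e-10; 1.51 with total reads alone), and FRAS1, a basement membrane protein of the embryo, fell (-2.60 ± 0.65, 0.00199; -1.56 with GC and length trends removed). NTN4, a netrin that binds laminin, rose in HepG2 from 6.03 to 36.4 CPM (2.39 ± 0.47, adjusted p = 0.000415). It also rose in HuH7 (2.17 ± 0.47, limma, adjusted p = 0.000745) and Hep3B (1.53 ± 0.47, 0.00872). The NTN4 call in Hep3B was lost with total reads alone (0.221) and without Hep3B in vitro replicate 2 (0.0554). Of the 3 other laminin chains tested, 2 rose and 1 fell in Hep3B, and 1 fell in HuH7 and in PLC/PRF/5, where 0 rose by limma, by its unadjusted p under 0.05 or by edgeR. In HepG2 limma and edgeR called 0 of them, with 1 lower at an unadjusted p under 0.05. Of 4 hemidesmosome and anchoring genes, 1 rose and 1 fell in Hep3B, near the shares of all amplicons (25.3% and 26.7%), and 2 rose in HuH7 (23.9% of all). In HepG2 0 were called by limma, by its unadjusted p or by edgeR, and in PLC/PRF/5 0 were called by limma or edgeR, with 2 higher and 1 lower at an unadjusted p under 0.05.

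Of 12 crosslinking and assembly enzymes tested, 7 fell in HepG2 (58.3%, against 12.4% of all amplicons) and 5 rose in PLC/PRF/5 (41.7%, against 11.7%). The 3 that rose and 3 that fell in Hep3B (25.0% each) were near the shares of all amplicons (25.3% and 26.7%), and the 2 and 2 in HuH7 (16.7% each) were below them (23.9% and 19.5%). The difference between lines was not tested. Limma and edgeR called 0 higher in HepG2, with 0 at an unadjusted p under 0.05, and 0 lower in PLC/PRF/5, with 1 at an unadjusted p under 0.05. LOXL4, a lysyl oxidase that crosslinks collagen, fell in HepG2 from 29.8 ± 1.49 CPM (SD, n = 3) to 1.30 ± 0.685 (SD, n = 4; -3.80 ± 0.42, limma, adjusted p = 1.54e-07) and in Hep3B from 138 ± 7.27 to 1.71 ± 0.769 (-5.73 ± 0.42, 8.01e-11). LOXL2, of the same family, rose in HuH7 from 13.5 ± 1.46 to 120.0 ± 31.0 CPM (3.03 ± 0.38, adjusted p = 9.54e-07) and in PLC/PRF/5 (1.88 ± 0.38, 0.00088), and fell in HepG2 (-2.22 ± 0.38, 8.87e-05). P4HA1, a collagen prolyl hydroxylase, rose in PLC/PRF/5 (1.69 ± 0.22, adjusted p = 4.71e-06). PLOD2, a lysyl hydroxylase, fell in HuH7 (-1.98 ± 0.62, adjusted p = 0.0127), a call lost without HuH7 in ovo replicate 3 (0.0635) and with each line fitted alone (0.0967). Its amplicon has 39.8% GC, and with GC and length trends removed the PLOD2 difference in HuH7 was -0.85 (limma, adjusted p = 0.0495). PLOD2 also fell in HepG2 (-2.07 ± 0.62, limma, adjusted p = 0.015) and Hep3B (-2.13 ± 0.62, 0.00611). The HepG2 call was lost with each line fitted alone (0.0948), and the Hep3B call with GC and length trends removed (0.202).

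**Figure D4:**
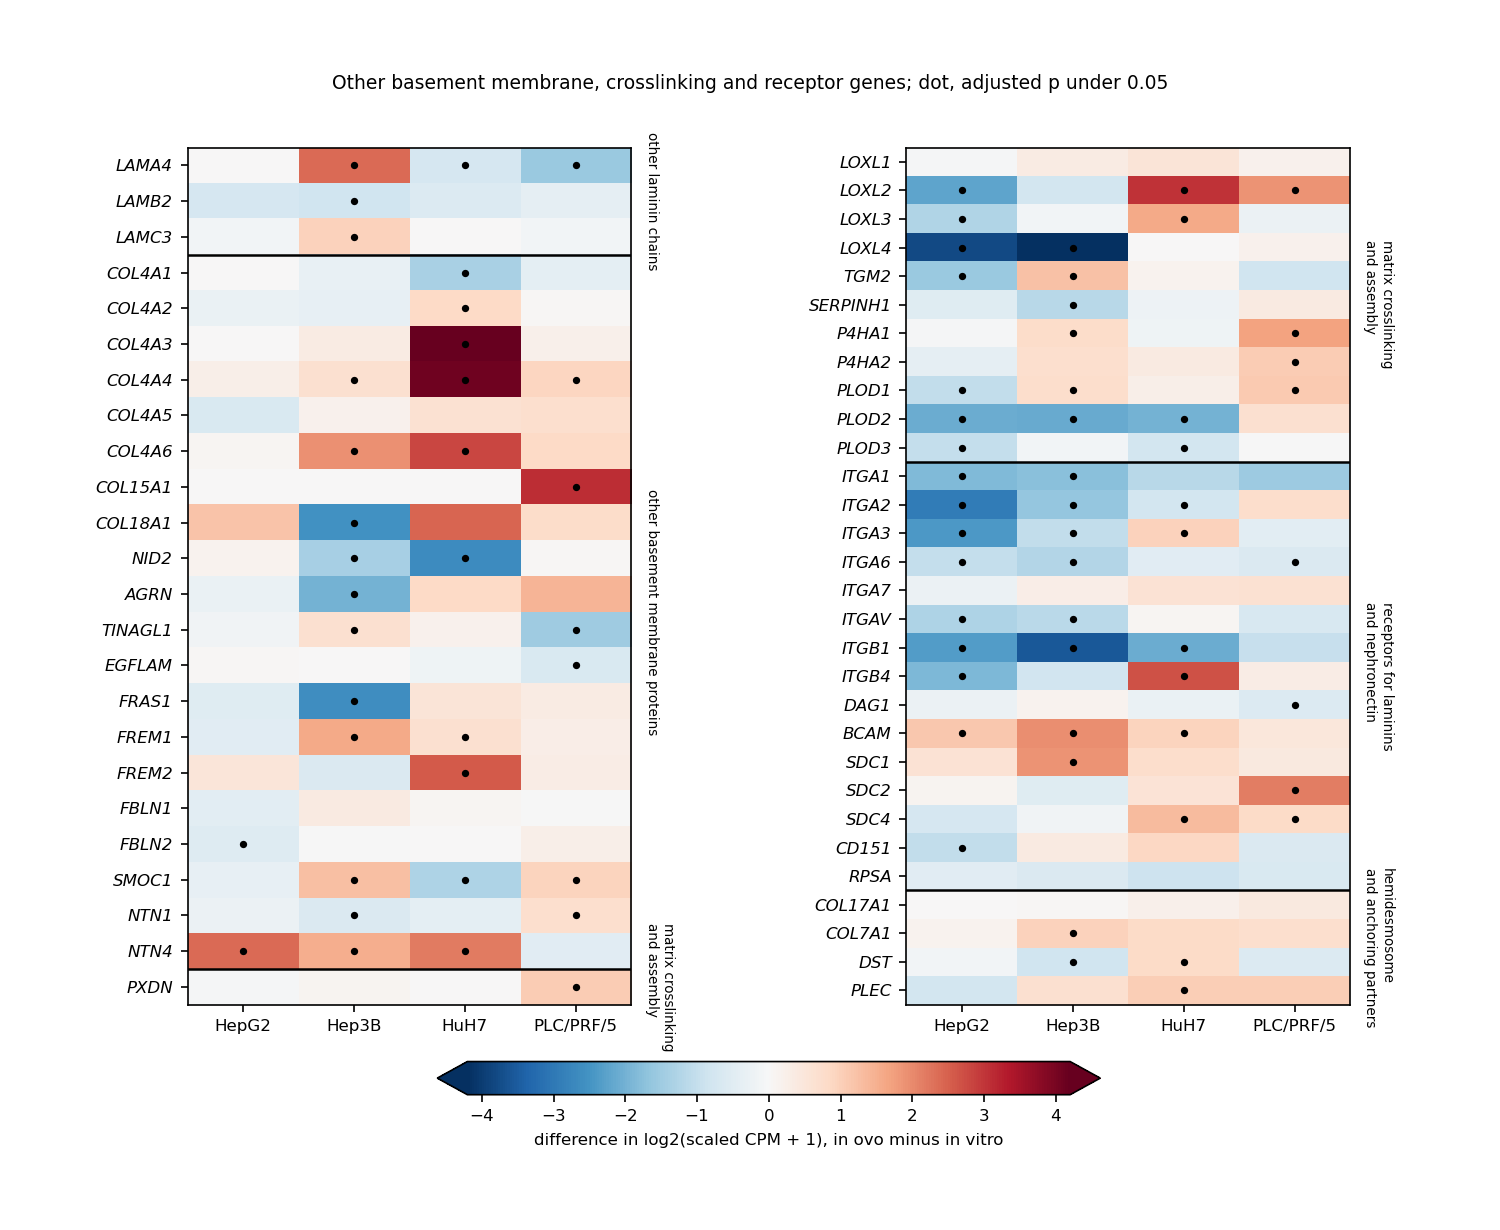
Difference in ovo minus in vitro in log2(scaled CPM + 1), as colour, for 54 other basement membrane, crosslinking and receptor genes (rows, grouped by list) in 4 lines (columns); a dot marks an adjusted p under 0.05. The HepG2 column has 16 dots on lower genes and 2 on higher ones, and the darkest higher fields are COL4A3 (4.18) and COL4A4 (4.07) in HuH7.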

How the data were processed

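The authors deposited 1 signal value per amplicon and library, scaled so that a library totals 500000, as the values themselves show, although the table is named for counts. DriverMap and the build hg38 are named per the labels' protocols and the submitters' processing notes, and the sources used here give no aligner or counting step. Values were doubled to CPM, and whole reads were recovered from their steps, with at least 99.9684% within 0.01 of a whole read and a largest departure of 0.114. Because the values are no counts, limma (3.58.1) replaced the count test. It was fitted once to the 8 groups (20 residual degrees of freedom) on TMM-scaled log2(CPM + 1), its variance following the mean. Alternatives were edgeR (4.0.16) on the recovered reads, size factors of DESeq2 (1.42.0), total reads alone, other pseudocounts and filters, each line fitted alone, the replicate block, removal of GC and length trends, and libraries left out. edgeR's filter (at least 10 reads) kept 13100 amplicons and left out 5861. Benjamini-Hochberg adjustment ran over all 13100 within a contrast, with calls under 0.05. 7 repeated symbols were kept apart, and 1 damaged cell (KRT18 in 1 library, 4021 CPM) was filled from its library's total. R was 4.3.3, Python 3.11.15 and matplotlib 3.10.9.

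The members and the lists were chosen with earlier results of these data known, and 1 gene of the lists is not reported here or counted. Named beside the 9 members are 6 receptor subunits whatever their values, in each line the 3 highest and 3 lowest differences among called pathway genes averaging at least 10 CPM in 1 condition, and the 5 genes most like NPNT. The rule for the 38 amplicons and the comparison with other lines' tumours were set after seeing the data. Floors of 3 reads cover counting error only, since the reads carry no molecular identifiers. Same-numbered cultures and tumours of a line did not all deviate together (r from -0.0967 to 0.457 over 12 pairs), so the numbers were not taken to pair cultures with tumours, although the tumours numbered 3 deviated together between lines (median r of 0.545 over 6 pairs).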

Additional observations from a re-analysis of the deposited data

Results flagged for a closer look

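On CPM, single tumours stood apart from the other 3 of their group in 11 of 120 groups examined by most of the group's whole range (Dixon's criterion). Each was the highest of its group. The criterion's rate of about 1 in 20 assumes normally distributed, independent values. CPM need not be normal and the groups share libraries, so that rate is no measure of chance here, and nothing is read from the count. 6 of the 11 were libraries numbered 3. NPNT was at 567 CPM in HepG2 tumour 3 (others 120 to 192) and at 1635 in HuH7 tumour 3 (549 to 620). LAMA5 was at 590 CPM in HepG2 tumour 3 (42.1 to 74.3), 783 in HuH7 tumour 3 (44.8 to 80.9), 778 in PLC/PRF/5 tumour 3 (46.1 to 58.1) and 76.7 in Hep3B tumour 1 (2.15 to 7.27). HuH7 tumour 1 stood out for LAMB1 at 2183 CPM (772 to 861), for NID1 at 752 (385 to 446) and for LAMA4 at 2.44 (1.02 to 1.2). DAG1 was at 531 CPM in HepG2 tumour 4 (435 to 450), and NID2 at 0.793 in PLC/PRF/5 tumour 3 (0 to 0.101), near the level of 3 reads.

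For 9 of 30 genes examined, every tumour was above the cultures in 1 line and below them in another, and the difference between the lines was not tested. The share of all amplicons that did so was not counted. Among the members, the widest gaps between lines in the log2 difference were 3.05 for LAMA3 (PLC/PRF/5 against Hep3B), 2.10 for LAMB1 (Hep3B against HepG2), 2.96 for NID1 (PLC/PRF/5 against HuH7) and 2.44 for HSPG2 (HuH7 against Hep3B). The other genes were LOXL2 (5.24, HuH7 against HepG2), ITGB4 (4.58, HuH7 against HepG2), LAMA4 (3.96, Hep3B against PLC/PRF/5), ITGA3 (3.38, HuH7 against HepG2) and PLOD2 (2.79, PLC/PRF/5 against Hep3B).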

How the results depend on the processing

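Of the recomputed member differences 1390 moved by less than the spread between replicates and 50 moved by more; of the culture pair tests 2099 kept their call, 45 passed newly and 16 were lost. Counts of called members changed by over 1.5 times in HepG2, from 3 to 5 (total reads alone; GC and length trends removed with replicate block), and in HuH7, from 5 to 3 (each line fitted alone). Among pathway genes, total reads alone moved Hep3B to 6 higher and 26 lower and PLC/PRF/5 to 10 lower. HepG2 had 1 higher with each line fitted alone. HuH7 had 13 lower with GC and length trends removed, with or without the replicate block. PLC/PRF/5 had 8 lower with DESeq2 size factors, 3 with edgeR, 8 with the replicate block, and 11 lower and 26 in all without the tumours numbered 3. With each library left out in turn, PLC/PRF/5 had 7 to 15 higher, Hep3B 10 to 17 lower and HuH7 5 to 10 lower. The replicate block changed no other count by over 1.5 times.

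Differences called in 1 fit or the other that changed sign were, in Hep3B with total reads alone, DAG1 (-0.86), TINAGL1 (-0.32) and P4HA1 (-0.22); and, with GC and length trends removed without and with the replicate block, COL4A4 (-0.27 and -0.30), EGFLAM (0.57 and 0.59) and COL15A1 (-0.94 and -1.08) in Hep3B and COL15A1 (-0.91 and -1.05) in HuH7, the last 2 genes being at or near 0 reads there. Sign changes called in neither fit came to 41, in 15 of 84 combinations of gene and line, with differences of at most 0.5. With a pseudocount of 5, differences of ITGA3 (-1.45), LOXL4 (-2.47) and LOXL2 (-1.32) in HepG2, LAMA4 (1.49) in Hep3B, and COL4A3 (2.23), COL4A4 (2.60) and PLOD2 (-1.26) in HuH7 shrank by over 1.5 times and kept their calls, while edgeR gave 7.92 for COL4A3. The cause was not tested. Depth limits LAMA1 in Hep3B, in HuH7 and in HepG2 cultures, LAMB3 in HepG2 and NID1 in PLC/PRF/5 cultures, which lie near 3 reads. It also bears on LAMB3 in HuH7 cultures, which held 4, 18 and 6 reads.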

Other observations

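Within the tumours of a line, the deviation of library 3 from the other tumours rose with the GC content of the amplicons, with Spearman's rho over amplicons of 0.429 in PLC/PRF/5, 0.421 in HuH7, 0.383 in HepG2 and 0.34 in Hep3B. Library 2 of Hep3B (0.269), library 1 of HuH7 (0.21) and library 4 of HepG2 (0.0326) also had a positive rho, the rest a negative one. Library 1 of Hep3B, which held the highest LAMA5 level of its line, was at -0.252. A link of these trends to the LAMA5 levels was not tested. Between lines, the deviations of the libraries numbered 3 had a median r of 0.545 over 6 pairs of lines, against 0.0288, 0.107 and 0.142 for those numbered 1, 2 and 4. Library 3 held the highest level of 7 of the 9 members in PLC/PRF/5, 6 in Hep3B, 5 in HepG2 and 3 in HuH7. It held the lowest level of 3 members in HuH7 and of 1 in each other line. The same shares over all amplicons were not counted, so nothing is read from these counts.

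Of 391 olfactory receptor amplicons, genes that liver cells are not known to use, 5.63 to 51.7% had a read in a tumour library and 2.05 to 7.67% in a culture.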
